A study of Mus musculus with 9 samples.

Results

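The matrix metalloproteinases (Mmp genes), the ADAMTS proteases (Adamts genes), their tissue inhibitors (Timp genes) and the collagen crosslinking enzymes (Lox, Loxl1 to Loxl4, Plod1 to Plod3) were examined in the back skin of BALB/c mice. Members were chosen by gene name: symbols starting with Mmp, Adamts or Timp and a digit, which leaves out the ADAMTS-like genes, together with the lysyl oxidase and lysyl hydroxylase genes. Of the 29205 genes in the table, 53 had such a name, and 48 of them had a summed count of at least 10 over the 9 libraries. These 48 were 17 Mmp, 19 Adamts, 4 Timp, 5 lysyl oxidase and 3 lysyl hydroxylase genes. Mmp24 (6 counts in all), Mmp21 (4), Mmp1b (3), Mmp1a (2) and Mmp20 (1) were below that sum, and their levels are not described further.

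Male BALB/c mice of 6 to 8 weeks were used, and all mice, controls included, had the back shaved and depilated. The control group received no imiquimod. The IMQ group had 62.5 mg of imiquimod (IMQ) cream, 5% by weight, put on the back daily for 5 days, and the LYS group had the same cream and was given Longkui Yinxiao soup (LYS), a herbal decoction, by gavage. IMQ is a Toll-like receptor agonist whose cream gives psoriasis-like lesions in mouse skin. The skin was taken on day 13, after the cream had ended, so the libraries describe the skin at that time only. The labels give LYS without a dose, and the study's methods name this group LYS-High, the higher of its doses. Each group had 3 libraries.

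Matrix metalloproteinases are zinc proteases that cleave collagens, gelatin and other matrix proteins, and most are secreted as inactive precursors. ADAMTS proteases are secreted too, and their groups cut proteoglycans such as versican and aggrecan, remove the amino-terminal propeptide of procollagens, or act on other matrix proteins. TIMPs block the active site of metalloproteinases, while lysyl hydroxylases modify lysines of new collagen and lysyl oxidases then turn lysines into the reactive groups that form crosslinks. In skin, fibroblasts make most of these proteins, while neutrophils carry Mmp8, Mmp9 and Mmp25, and keratinocytes at a wound edge can make stromelysins and collagenases.

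Total counts were 14658645 to 19609878 per library. Levels are CPM, the counts of a gene scaled to a common library size, after TMM scaling over all 9 libraries, and levels of different genes are compared only as FPKM, which is per length. A gene is called when its adjusted p is under 0.05 and its absolute log2 fold change is over 0.58, in edgeR's quasi-likelihood test of the 6 libraries compared, with Benjamini-Hochberg adjustment over all genes tested. Errors after a log2 fold change are standard errors (SE), and n is 3 per group throughout. Nothing in the labels says that the libraries are separate mice, so the p-values measure the spread between these libraries, which may in part be technical.

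The IMQ group carried less RNA of most of these genes than the control group, and more of a few proteases. Of the 47 members tested in IMQ against Control, 33 were lower and 5 higher, and 9 were not called. Over all genes tested in the same fit, 26.9% were called lower and 24.1% higher. The median log2 fold change was -1.29 over the members and -0.06 over all genes. The 5 higher members were Mmp8, Mmp13, Mmp9, Mmp25 and Adamts13. The control and IMQ libraries did not overlap for 34 members that were lower and 5 that were higher, against 35.9% and 34.1% of all genes tested. All 4 Timp genes, all 5 lysyl oxidase genes and all 3 lysyl hydroxylase genes were lower. Whole skin was sequenced, so fewer cells of a type and less RNA per cell cannot be told apart.

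In LYS against IMQ, 0 of the 45 members tested were called, as were 0% of all genes tested, and the smallest adjusted p of a member was 0.0591 by edgeR. At an unadjusted p under 0.05, 27 members were higher and 2 lower in the LYS group, where 19.3% of all genes were higher and 15.9% lower. The median log2 fold change was 1.15 over the members and 0.04 over all genes, and 40 members had a higher and 5 a lower fitted level. The LYS libraries lay above all IMQ libraries for 19 members (16.8% of all genes tested did so) and below them for 2 (22.1%). The count of calls here depended on the tool and on 2 libraries. DESeq2 called 24 members higher and 2 lower, where it called 13.3% and 9.49% of genes. When edgeR was fitted once to all 9 libraries, 19 members were higher and 2 lower, against 9.93% and 8.62% of genes. Leaving out LYS 1 gave 25 higher and 2 lower (14.9% and 11.9% of genes), and leaving out IMQ 1 gave 19 higher and 0 lower (6.8% and 5.03% of genes). The calls of all 4 of these fits shared 16 members, all higher in the LYS group: Mmp2, Mmp11, Mmp14, Mmp19, Mmp23, Timp1, Timp4, Lox, Loxl1, Loxl2, Loxl4, Plod1, Plod3, Adamts7, Adamts9 and Adamts15. These 4 fits were among those that gave calls, and the share of all genes that they have in common is not given. Each of the 16 was called in 6 of 13 alternatives. With other scaling, a replicate block, or without IMQ 2, IMQ 3, LYS 2 or LYS 3, edgeR called 0 genes.

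Those 2 libraries stood apart for the members. IMQ 1 was the highest IMQ library for 36 of the 48 members, or 75.0%, against 38.2% of the 15053 genes tested in all 3 comparisons. LYS 1 was the lowest LYS library for 29 members, or 60.4%, against 37.6% of those genes. With both left out, an alternative added after the data had been seen, 28 members were higher and 3 lower in LYS against IMQ. Of the 15670 genes tested in that fit, 3242 were called higher and 2514 lower.

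In LYS against Control, 6 of the 47 members tested were higher and 12 lower, against 15.1% and 12.9% of all genes tested, and 29 were not called. The 6 were Mmp8, Mmp13, Mmp9, Mmp25, Mmp11 and Mmp3. Of the 33 members lower in IMQ against Control, 12 were also lower in LYS against Control and 21 were not called there. DESeq2 called 9 members higher and 17 lower here, against 14.1% and 12.4% of genes. The comparisons share control libraries, so these are counts and not a test of recovery. How many of all genes lower in IMQ against Control were also lower in LYS against Control is not given. Whether the split of the 33 members into 12 and 21 differs from that of genes in general therefore cannot be told.

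**Figure D1:**
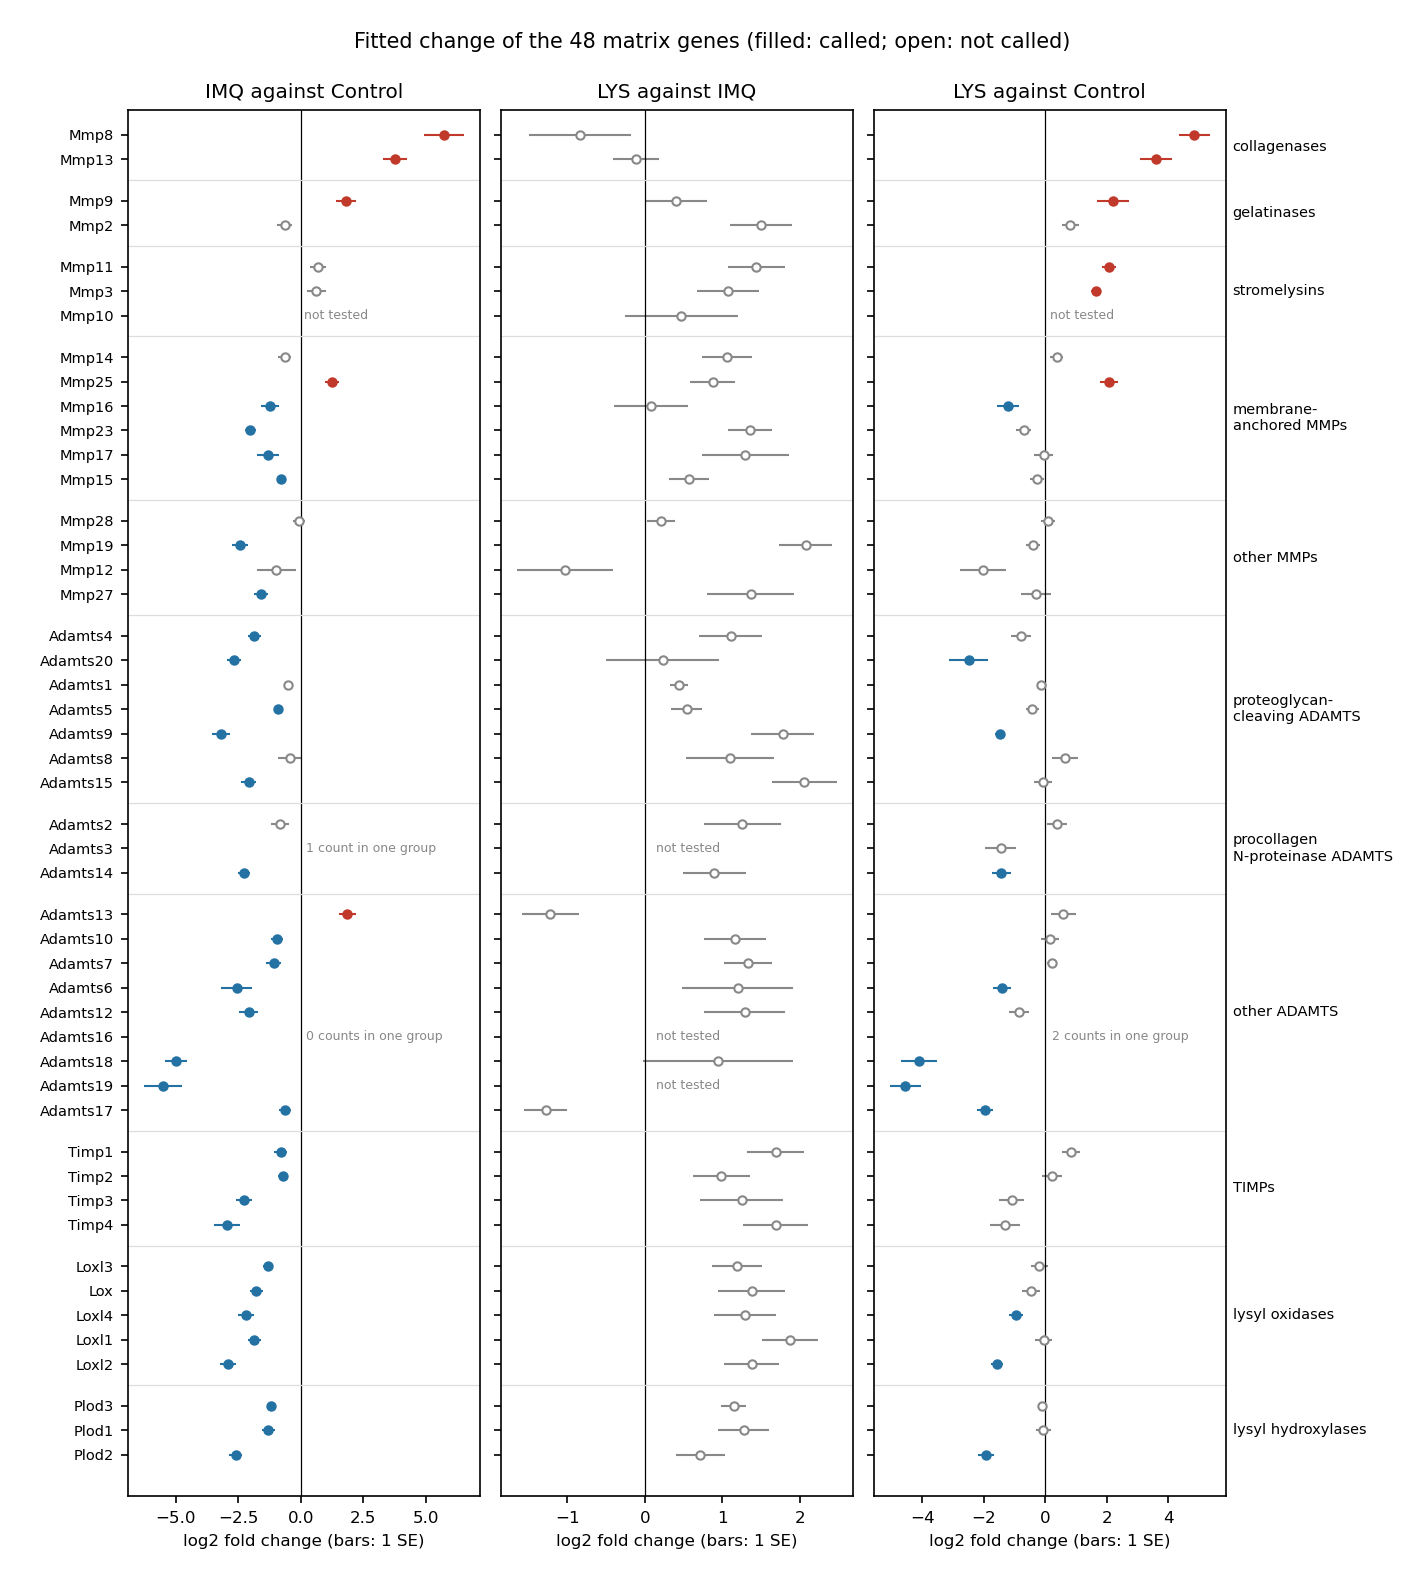
Fitted log2 fold change of each of the 48 members, with 1 SE to each side, in the 3 comparisons, grouped by role. The horizontal scales of the panels differ. Filled points are called (red higher, blue lower) and open points are not. A member whose lower group held 3 counts or fewer is given as a count, since its fitted fold depends on the settings. In the left panel all Timp, lysyl oxidase and lysyl hydroxylase genes are at filled blue points, and in the middle panel no point is filled.

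Among the members that edgeR tested, the collagenases showed the largest rises. Mmp8, neutrophil collagenase, stood at 0.29, 0.601 and 0.243 CPM in the control libraries 1 to 3, at 11.6, 43.0 and 7.98 CPM in the IMQ libraries and at 7.96, 17.5 and 7.63 CPM in the LYS libraries. Every IMQ and LYS library lay above every control library, and IMQ 2 was the highest. The log2 fold change was 5.73 ± 0.79 in IMQ against Control (53.0-fold, edgeR adjusted p = 4.94e-04) and 4.84 ± 0.5 in LYS against Control (9.1e-04). Without IMQ 2 the first value was 4.67. The LYS and IMQ libraries overlapped, with a log2 fold change of -0.84 ± 0.66 (adjusted p = 0.385) that turned to 0.23 without IMQ 2. Mmp13, collagenase 3, which cleaves fibrillar collagen, was at 1.11, 0.323 and 0.292 CPM in the control, 8.75, 9.01 and 5.93 CPM in the IMQ and 9.77, 5.2 and 6.08 CPM in the LYS libraries. Again control lay below both other groups, and these overlapped. Its log2 fold change was 3.76 ± 0.47 in IMQ against Control (adjusted p = 3.29e-04) and 3.6 ± 0.53 in LYS against Control (0.00315), and these were 4.63 and 4.46 without Control 1.

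Of the 2 gelatinases, edgeR called Mmp9 and not Mmp2. Mmp9, gelatinase B, was at 9.37, 8.82 and 3.07 CPM in the control, 21.6, 34.8 and 19.2 CPM in the IMQ and 53.7, 23.0 and 19.8 CPM in the LYS libraries. Control lay below both other groups, and LYS 1 was the highest library. The fitted change on the log2 scale was 1.82 ± 0.4 in IMQ against Control (adjusted p = 0.00506) and 2.19 ± 0.52 in LYS against Control (0.0171). The latter missed the threshold without Control 2 (0.0508). Mmp2, gelatinase A, which fibroblasts make constitutively, was the most abundant Mmp gene at a mean of 149 FPKM over the 9 libraries. It was at 367, 486 and 415 CPM in the control, 416, 229 and 179 CPM in the IMQ and 449, 871 and 902 CPM in the LYS libraries. IMQ 1 lay within the control range while the other IMQ libraries lay below it, and LYS 2 and LYS 3 stood above all other libraries. By edgeR Mmp2 was called in none of the 3 comparisons, with log2 fold changes of -0.63 ± 0.3 (IMQ against Control, adjusted p = 0.102), 1.5 ± 0.4 (LYS against IMQ, 0.065) and 0.81 ± 0.28 (LYS against Control, 0.0584). DESeq2 called it higher in LYS against IMQ (0.00265) and in LYS against Control (0.0204). By edgeR it was lower in IMQ against Control without IMQ 1 (-1.04, 0.0013) and higher in LYS against Control without LYS 1 (1.08, 0.00261), and it was higher in LYS against IMQ without IMQ 1 (1.93, 0.0416) or without LYS 1 (1.77, 0.0156).

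Among the stromelysins, Mmp3 and Mmp11 were higher in the LYS group than in the control group. Mmp3, stromelysin 1, which also activates other precursors, was at 44.7, 57.0 and 56.5 CPM in the control, 140, 54.1 and 50.9 CPM in the IMQ and 166, 189 and 141 CPM in the LYS libraries. All LYS libraries lay above all others, and among the IMQ libraries only IMQ 1 was above the control range. Its log2 fold change was 1.65 ± 0.17 in LYS against Control (adjusted p = 8.37e-04), 0.63 ± 0.37 in IMQ against Control (0.175) and 1.08 ± 0.4 in LYS against IMQ (0.108). Without IMQ 1 the second was 0.00 (0.997) and the third 1.72 (0.0406), which DESeq2 also called with all libraries (0.0345). Mmp11, stromelysin 3, which furin activates inside the cell, was at 9.9, 12.4 and 11.7 CPM in the control, 27.2, 11 and 16.7 CPM in the IMQ and 31.9, 58.8 and 51.8 CPM in the LYS libraries. The LYS libraries again lay above all others. The log2 fold change was 2.07 ± 0.24 in LYS against Control (adjusted p = 0.00131), 0.69 ± 0.31 in IMQ against Control (0.0843), or 0.96 without IMQ 2 (0.015), and 1.44 ± 0.37 in LYS against IMQ (0.0633), where DESeq2 called it (0.00324). Mmp10, stromelysin 2, had 2 counts over the control, 21 over the IMQ and 33 over the LYS libraries. These give a ratio of 15.2 for IMQ over control (95% exact interval 3.71 to 133) and 21 for LYS over control (5.36 to 180). The intervals cover counting error only. Mmp10 did not pass the low-count filter of edgeR in either comparison with control. DESeq2 called it higher in IMQ against Control (adjusted p = 0.0178) and in LYS against Control (0.0112). Of the alternatives that tested it, 3 of 3 called it in the former and 5 of 7 in the latter.

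**Figure D2:**
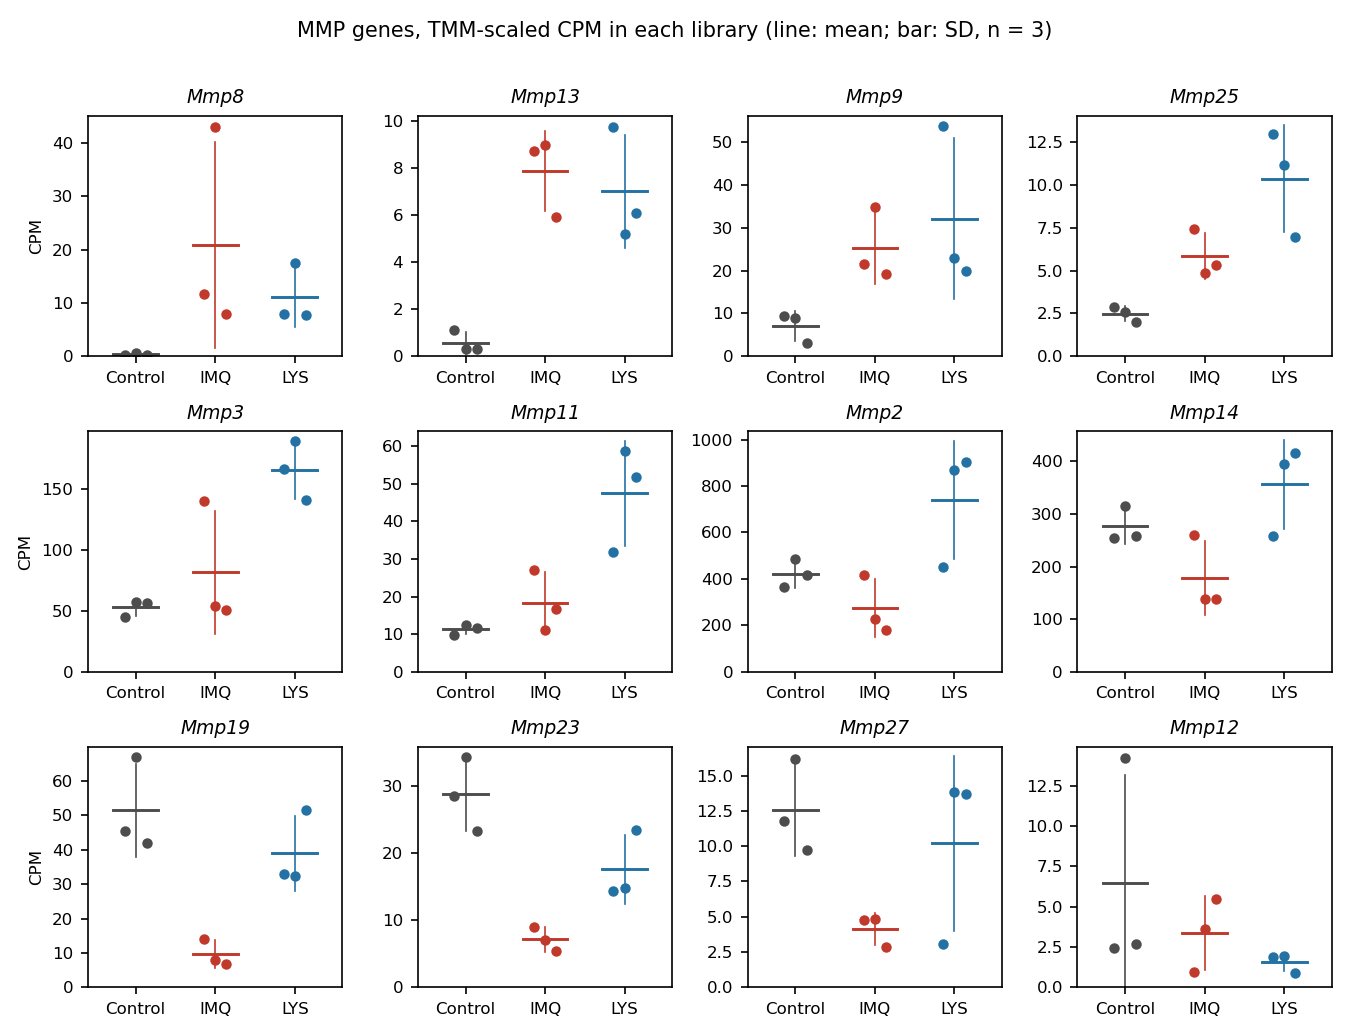
TMM-scaled CPM of 12 Mmp genes in each library, with 1 point per library, a line at the group mean and a bar of 1 SD, stopped at 0. Each panel has its own axis from 0. Mmp8, Mmp13, Mmp9 and Mmp25 are lowest in the control libraries, Mmp3 and Mmp11 are highest in the LYS libraries, and Mmp19 and Mmp23 are lowest in the IMQ libraries.

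Mmp13, Mmp12, Mmp3, Mmp10, Mmp8 and Mmp27 lie with Mmp1b, Mmp1a and Mmp20 in a single cluster on chromosome 9, from 7272514 to 7674979 in GRCm38, 402.5 kb long. Neighbours in the cluster did not change together. In IMQ against Control, Mmp13 at its start and Mmp8 near its far end were higher, Mmp27 next to Mmp8 was lower with a log2 fold change of -1.6 ± 0.28 (edgeR adjusted p = 0.00158), and Mmp3 and Mmp12 were not called. Mmp12, macrophage elastase, was at 2.46, 14.2 and 2.68 CPM in the control, 0.972, 3.65 and 5.49 CPM in the IMQ and 1.88, 1.92 and 0.917 CPM in the LYS libraries. Control 2 was far above the rest, and the log2 fold change was -0.97 ± 0.79 in IMQ against Control (adjusted p = 0.317), or 0.36 without Control 2. In LYS against Control it was -2.03 ± 0.74 (0.0711), or -0.73 without Control 2 (0.24), and DESeq2 called it lower (0.0115). In LYS against Control, edgeR called Mmp13, Mmp3 and Mmp8 higher and did not call Mmp27 or Mmp12.

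**Figure D3:**
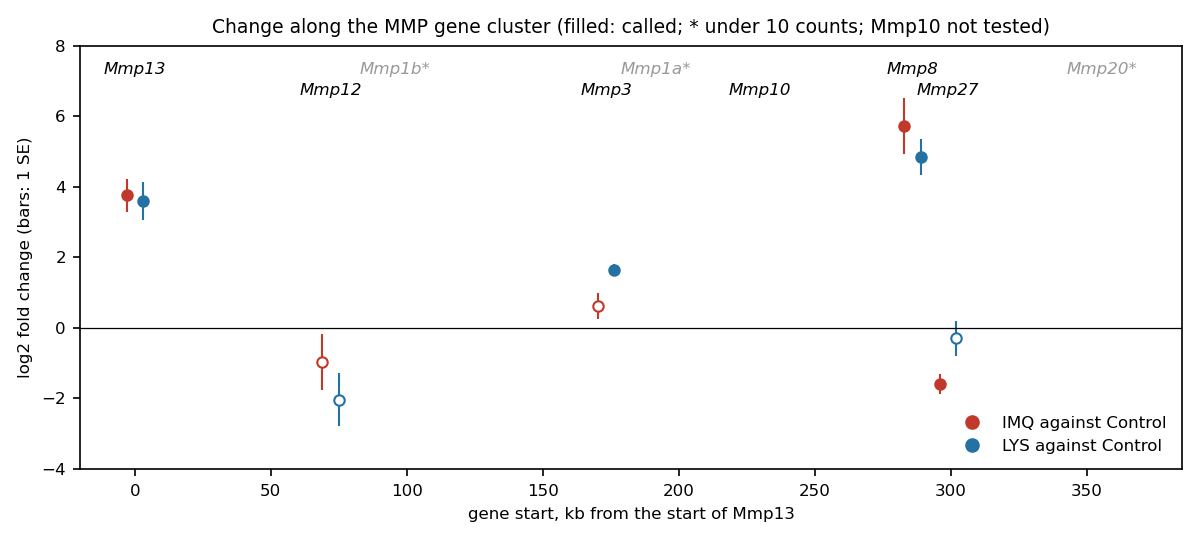
Log2 fold change with 1 SE of the Mmp genes along the chromosome 9 cluster, against the distance of each gene's lower coordinate from that of Mmp13 in kb. Red is IMQ against Control and blue LYS against Control; filled points are called, and genes with a star had under 10 counts. Mmp13 and Mmp8 lie above 3 on the log2 scale in both comparisons, while Mmp27, a neighbour of Mmp8, lies below 0.

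The promoters of 4 members of this cluster are shown because they hold the same short motif. RefSeq promoters (GRCm38.p6) were found for 29 of the 48 members. The motif TGAGTCA, the consensus bound by AP-1 factors, was searched on both strands in the 250 bases before each start. It was present in 4.46% of the 32851 promoters and 5.16% of the 27025 genes with one. Among the 29 members it was present in 4, Mmp13, Mmp12, Mmp3 and Mmp10, all in this cluster. With TGANTCA, which includes TGAGTCA, the share of promoters was 6.75% and the members were the same 4. Mmp8 and Mmp27 have neither form in the window. Mmp1a and Mmp1b, cluster genes with 2 and 3 counts in all, hold TGAGTCA too, 73 and 93 bases before the start. A match describes these letters and does not show a bound site. The rule for showing promoters took Mmp13 only, and the other 3 were chosen after their values were seen. The 110 bases that end just before each RefSeq start are given 5′ to 3′ on the gene's strand, all of them the plus strand, with the motif or its reverse complement in capitals.
Mmp13, chr9:7272404-7272513: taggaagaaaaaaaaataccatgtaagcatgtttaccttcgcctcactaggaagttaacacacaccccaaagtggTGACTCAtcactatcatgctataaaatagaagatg
Mmp12, chr9:7347264-7347373: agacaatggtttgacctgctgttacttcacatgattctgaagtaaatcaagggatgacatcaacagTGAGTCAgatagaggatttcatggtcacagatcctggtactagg
Mmp3, chr9:7445712-7445821: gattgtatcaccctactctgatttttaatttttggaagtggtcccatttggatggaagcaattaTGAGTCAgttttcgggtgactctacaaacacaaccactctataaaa
Mmp10, chr9:7502232-7502341: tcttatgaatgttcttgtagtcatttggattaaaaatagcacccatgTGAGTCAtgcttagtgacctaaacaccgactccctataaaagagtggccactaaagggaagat
The motif begins 35 bases before the start in Mmp13, 44 in Mmp12, 46 in Mmp3 and 63 in Mmp10. The Mmp12 promoter belongs to its second RefSeq start. The 4 genes did not share a direction: Mmp13 was higher in both comparisons with control, Mmp3 in LYS against Control only, Mmp12 in neither, and Mmp10 is described by its counts above.

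Of the 6 membrane-anchored Mmp genes, 1 rose and 4 fell in IMQ against Control, where 24.1% of all genes tested rose and 26.9% fell. Mmp25, leukolysin, an enzyme of neutrophils, was at 2.85, 2.59 and 2.0 CPM in the control, 7.41, 4.84 and 5.35 CPM in the IMQ and 13.0, 11.2 and 6.94 CPM in the LYS libraries. Control lay below both other groups. Its log2 fold change was 1.24 ± 0.27 in IMQ against Control (edgeR adjusted p = 0.00445) and 2.07 ± 0.29 in LYS against Control (0.00277). Mmp14, which activates the Mmp2 precursor on the cell surface together with Timp2, was at 255, 315 and 259 CPM in the control, 260, 138 and 138 CPM in the IMQ and 259, 394 and 415 CPM in the LYS libraries. As for Mmp2, IMQ 1 and LYS 1 lay within the control range and the other libraries of their groups outside it. By edgeR Mmp14 was called in no comparison, with log2 fold changes of -0.63 ± 0.26 in IMQ against Control (adjusted p = 0.0646) and 1.06 ± 0.32 in LYS against IMQ (0.076). Without IMQ 1 it was lower in IMQ against Control (-0.99, 5.21e-04), and DESeq2 called it lower there too (0.0392). In LYS against IMQ it was called higher by DESeq2 (0.0116), and by edgeR without IMQ 1 (1.43, 0.0409) or without LYS 1 (1.25, 0.0258). Mmp23, a type II membrane protease, was at 28.5, 34.3 and 23.3 CPM in the control, 8.99, 7.07 and 5.35 CPM in the IMQ and 14.4, 14.8 and 23.4 CPM in the LYS libraries. All IMQ libraries were below all others, with a log2 fold change of -2.01 ± 0.23 in IMQ against Control (adjusted p = 2.06e-04), 1.36 ± 0.29 in LYS against IMQ (0.0591) and -0.71 ± 0.23 in LYS against Control (0.0539). DESeq2 called Mmp23 higher in LYS against IMQ (9.8e-04) and lower in LYS against Control (0.0315). Mmp15, Mmp16 and Mmp17 also fell in IMQ against Control, by 0.78, 1.23 and 1.3 on the log2 scale. Mmp16 lost that call without Control 2 (adjusted p = 0.0567), and Mmp17 lost it without Control 1, Control 2, Control 3 or IMQ 2 (0.0612 to 0.0832). Mmp16 was also lower in LYS against Control (-1.21 ± 0.36, adjusted p = 0.0361), a call lost without Control 1, Control 2, Control 3, LYS 1 or LYS 2 (0.063 to 0.122).

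Mmp19, a secreted protease of basement membrane proteins, was at 45.5, 66.8 and 42.0 CPM in the control, 14.2, 7.89 and 6.67 CPM in the IMQ and 32.9, 32.5 and 51.4 CPM in the LYS libraries. The IMQ libraries lay below all others, and the LYS and control libraries overlapped. The fitted change on the log2 scale was -2.42 ± 0.31 in IMQ against Control (adjusted p = 3.56e-04), 2.08 ± 0.34 in LYS against IMQ (0.0591) and -0.4 ± 0.24 in LYS against Control (0.241). Mmp19 shares 22.3% of its exon bases with Tmem198b on the other strand, and the library kit does not mark strand, so reads there cannot be assigned. Mmp28, epilysin, an epidermal protease, was called in no comparison and stayed between 14.1 and 25.2 CPM in all libraries.

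Of the 19 Adamts genes, 15 fell and 1 rose in IMQ against Control, where 26.9% of all genes tested fell and 24.1% rose. Of the 7 that cleave proteoglycans, 5 fell: Adamts4, Adamts5, Adamts9, Adamts15 and Adamts20. Adamts9, which cleaves versican, was at 50.2, 47.8 and 54.4 CPM in the control, 9.05, 4.39 and 3.08 CPM in the IMQ and 14.9, 22.3 and 17.3 CPM in the LYS libraries. The 3 groups did not overlap, and LYS lay between. The log2 fold change was -3.19 ± 0.35 in IMQ against Control (edgeR adjusted p = 1.59e-04), 1.78 ± 0.41 in LYS against IMQ (0.0591) and -1.48 ± 0.17 in LYS against Control (0.00133). Adamts15, also a versicanase, was at 42.4, 53.4 and 43.3 CPM in the control, 16.8, 9.01 and 7.11 CPM in the IMQ and 27.4, 62.9 and 41.2 CPM in the LYS libraries. The IMQ libraries were below all others, with log2 fold changes of -2.08 ± 0.3 in IMQ against Control (6.46e-04), 2.06 ± 0.42 in LYS against IMQ (0.0591) and -0.08 ± 0.28 in LYS against Control (0.85). Adamts20, the gene of the belted coat mutation, was at 12.2, 6.98 and 12.1 CPM in the control, 1.58, 1.86 and 1.54 CPM in the IMQ and 0.837, 0.565 and 4.07 CPM in the LYS libraries. Both treated groups lay below control, with log2 fold changes of -2.66 ± 0.29 in IMQ against Control (1.65e-04) and -2.5 ± 0.65 in LYS against Control (0.0243). The latter was -3.89 without LYS 3, and was not called without Control 1, Control 2, Control 3 or LYS 2 (0.0537 to 0.0897). Adamts1, the most abundant of this group per length, was at 95.2, 90.1 and 104 CPM in the control, 72.4, 62.6 and 69.2 CPM in the IMQ and 83.0, 87.2 and 93.4 CPM in the LYS libraries. Control and IMQ did not overlap, but the log2 fold change of -0.51 ± 0.11 (adjusted p = 0.0057) was below the size threshold.

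The procollagen N-proteinases Adamts2, Adamts3 and Adamts14 remove the amino-terminal propeptide of fibrillar procollagens. Adamts2 was at 196, 253 and 219 CPM in the control, 214, 80.3 and 86.5 CPM in the IMQ and 146, 347 and 378 CPM in the LYS libraries. IMQ 1 lay among the control values and LYS 1 below them, and edgeR called no comparison (-0.81 ± 0.36 in IMQ against Control, adjusted p = 0.0827). Without IMQ 1 it was lower in IMQ against Control (-1.41, 9.88e-05) and higher in LYS against IMQ (1.87, 0.0484), and without LYS 1 it was higher in LYS against IMQ (1.59, 0.0355) and in LYS against Control (0.72, 0.00939). DESeq2 called it lower in IMQ against Control (0.0408) and higher in LYS against IMQ (0.0377). Adamts14 fell by 2.27 on the log2 scale in IMQ against Control and by 1.44 in LYS against Control, where the call was lost without Control 2 (0.0519) or LYS 2 (0.0501). Adamts3 had 76 counts over the control, 1 over the IMQ and 22 over the LYS libraries, a ratio of 52.6 for control over IMQ (95% exact interval 9.17 to 2110, counting error only).

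Among the other Adamts genes, 3 were close to absent after IMQ, with and without LYS. Adamts18, a secreted protease with few known substrates, was at 17.7, 19.3 and 22.8 CPM in the control, 1.21, 0.223 and 0.366 CPM in the IMQ and 0.0698, 1.69 and 1.61 CPM in the LYS libraries. The fitted change on the log2 scale was -4.97 ± 0.44 in IMQ against Control (edgeR adjusted p = 6.15e-05), or -6.04 without IMQ 1, and -4.1 ± 0.59 in LYS against Control (0.00292). Adamts19 was at 3.57, 3.56 and 6.18 CPM in the control, 0, 0.298 and 0 CPM in the IMQ and 0.209, 0.0565 and 0.287 CPM in the LYS libraries. Both treated groups lay far below control, and Adamts19 was called lower in both. Adamts16 had 129 counts over the control libraries (3.19, 2.26 and 0.682 CPM), 0 in every IMQ library and 2 over the LYS libraries. Its control mean was at least 9.15-fold higher than the level that 3 counts per library would give in the IMQ group, and the ratio of control over LYS was 50.8 (95% exact interval 13.8 to 424). Setting Adamts16 to its bound left the median over the members at -1.29 and that over the other Adamts genes at -2.08.

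Between the groups, the hair follicle markers moved with these genes. The summed level of the 8 hair follicle markers (among them the inner root sheath keratins Krt25, Krt27 and Krt71) was 2270 to 5040 CPM in the control, 31.1 to 37.2 CPM in the IMQ and 13.1 to 34.2 CPM in the LYS libraries. All 8 fell in both comparisons with control, and Krt31 was at 0 in all 6 treated libraries. Within the control group the sum was 3530, 2270 and 5040 CPM in libraries 1 to 3. Control 3, with the highest sum, held the highest Adamts18 and Adamts19 of its group but the lowest Adamts16. The part of hair follicles in the Adamts values was not tested.

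Adamts13 and Adamts17 departed from the rest of the family. Adamts13, which cleaves von Willebrand factor, was the only Adamts gene called higher: 0.918, 0.554 and 0.877 CPM in the control, 2.73, 3.65 and 2.27 CPM in the IMQ and 1.74, 0.904 and 0.917 CPM in the LYS libraries. The IMQ libraries lay above all others, with a log2 fold change of 1.86 ± 0.34 in IMQ against Control (edgeR adjusted p = 0.00207) and -1.22 ± 0.37 in LYS against IMQ (0.0773). Adamts17, linked to microfibrils, was at 4.2, 5.13 and 5.36 CPM in the control, 2.92, 3.65 and 3.0 CPM in the IMQ and 1.19, 1.47 and 1.09 CPM in the LYS libraries. The 3 groups did not overlap, and the LYS libraries were the lowest. Its log2 fold change was -0.63 ± 0.23 in IMQ against Control (0.0408), -1.28 ± 0.28 in LYS against IMQ (0.0591) and -1.96 ± 0.26 in LYS against Control (0.0021). The call in IMQ against Control was lost when any 1 of the 6 libraries was left out (0.0518 to 0.113). DESeq2 did not call Adamts17 there (0.066), and 2 of 12 alternatives did. Adamts13 and Adamts17 were the 2 members whose LYS libraries lay below all IMQ libraries.

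Adamts7 and Adamts12, both of which cleave cartilage oligomeric matrix protein, and Adamts6 and Adamts10 fell in IMQ against Control. Adamts12, the most abundant of the 9 other Adamts genes per length, was at 94.2, 104 and 100 CPM in the control, 40.5, 17.1 and 12.9 CPM in the IMQ and 27.1, 64.5 and 72.5 CPM in the LYS libraries, with a log2 fold change of -2.08 ± 0.38 in IMQ against Control (adjusted p = 0.00201) that was -2.73 without IMQ 1. Control lay above both other groups, which overlapped. Adamts7 was at 12.0, 12.7 and 12.9 CPM in the control, 8.99, 4.24 and 4.54 CPM in the IMQ and 14, 14.9 and 14.2 CPM in the LYS libraries. The IMQ libraries were the lowest and the LYS libraries the highest, with log2 fold changes of -1.08 ± 0.29 in IMQ against Control (0.0134) and 1.33 ± 0.31 in LYS against IMQ (0.0598). Adamts6 fell by 2.55 on the log2 scale in IMQ against Control, or by 3.79 without IMQ 1, and Adamts10 fell by 0.94.

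By edgeR all 4 inhibitors fell in IMQ against Control and none was called in LYS against Control, where DESeq2 called Timp1 higher (adjusted p = 0.0346) and Timp3 (0.0255) and Timp4 (0.0162) lower. Timp2, the most abundant member of all at a mean of 160 FPKM, binds the Mmp2 precursor as well as blocking active enzymes. It was at 623, 736 and 585 CPM in the control, 452, 412 and 325 CPM in the IMQ and 401, 757 and 1090 CPM in the LYS libraries. IMQ lay below control, while the LYS libraries spread over both. The log2 fold change was -0.72 ± 0.17 in IMQ against Control (edgeR adjusted p = 0.00798), 0.99 ± 0.37 in LYS against IMQ (0.107) and 0.21 ± 0.33 in LYS against Control (0.659). Without IMQ 3 the first was -0.58, just short of the size threshold, and with all 9 libraries fitted together its adjusted p was 0.0771. Timp3, which is held in the matrix and also inhibits ADAMTS and ADAM proteases, was at 208, 233 and 198 CPM in the control, 65.1, 42.7 and 24.1 CPM in the IMQ and 41.1, 96.0 and 161 CPM in the LYS libraries. Control lay above all others. Its log2 fold change was -2.28 ± 0.32 in IMQ against Control (5.35e-04), 1.25 ± 0.54 in LYS against IMQ (0.148) and -1.1 ± 0.41 in LYS against Control (0.0784). Timp3 shares 21.3% of its exon bases with Syn3 on the other strand.

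Timp4 was at 58.9, 133 and 36.4 CPM in the control, 15.1, 8.56 and 6.08 CPM in the IMQ and 19.3, 29.7 and 42.8 CPM in the LYS libraries. The IMQ libraries were the lowest, and Control 2 the highest. The fitted change on the log2 scale was -2.93 ± 0.52 in IMQ against Control (adjusted p = 0.00171), or -2.26 without Control 2, and 1.69 ± 0.42 in LYS against IMQ (0.0608). The summed adipocyte markers had the same highest library, at 4660 to 11700 CPM in the control (11700 in Control 2), 512 to 1460 CPM in the IMQ and 1510 to 3540 CPM in the LYS libraries. This was not particular to adipocytes: Control 2 was also the highest control library for the fibroblast, mast cell, endothelium and smooth muscle and pericyte sums. It was so for 28 of the 48 members as well. All 7 adipocyte markers fell in both comparisons with control, and their part in the Timp4 values was not tested. Timp1, the inhibitor that cytokines induce, was at 12.0, 11.3 and 11 CPM in the control, 9.17, 4.92 and 5.49 CPM in the IMQ and 26.7, 23.0 and 11.5 CPM in the LYS libraries. The IMQ libraries lay below all others, and LYS 1 and LYS 2 stood above all control libraries. The log2 fold change was -0.8 ± 0.25 in IMQ against Control (0.0245), 1.69 ± 0.37 in LYS against IMQ (0.0591) and 0.84 ± 0.3 in LYS against Control (0.0661). The call in IMQ against Control was lost without Control 1, Control 2, Control 3, IMQ 2 or IMQ 3 (0.0508 to 0.079). It was also lost with all 9 libraries fitted together (0.0593).

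**Figure D4:**
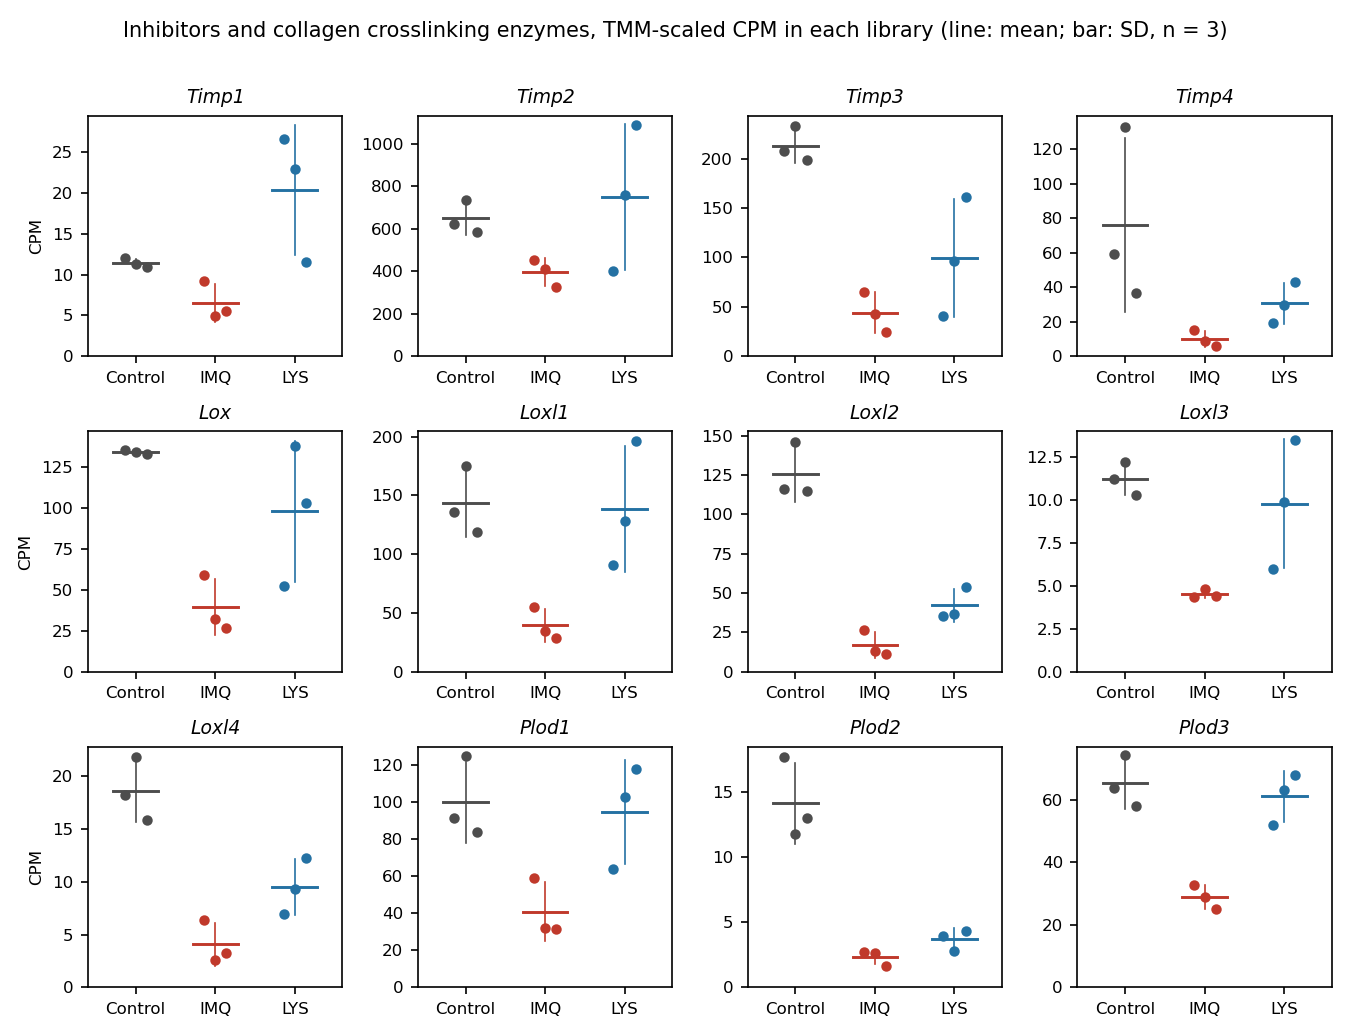
TMM-scaled CPM of the 4 Timp, 5 lysyl oxidase and 3 lysyl hydroxylase genes in each library, with 1 point per library, a line at the group mean and a bar of 1 SD. Each panel has its own axis from 0. The IMQ libraries lie below every control library in all 12 panels, and all LYS libraries of Timp3, Loxl2, Loxl4 and Plod2 lie below control too.

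The crosslinking enzymes fell together in IMQ against Control. Lox, the lysyl oxidase that acts on collagen and elastin, was at 135, 134 and 133 CPM in the control, 59.0, 32.3 and 26.9 CPM in the IMQ and 52.5, 138 and 103 CPM in the LYS libraries. IMQ lay below control, and LYS 1 lay within the IMQ range while LYS 2 reached the control level. The fitted change on the log2 scale was -1.77 ± 0.27 in IMQ against Control (edgeR adjusted p = 8.51e-04), 1.38 ± 0.43 in LYS against IMQ (0.0782) and -0.46 ± 0.3 in LYS against Control (0.281). Loxl1, the paralog needed for elastic fibres, was at 136, 175 and 119 CPM in the control, 55.1, 34.9 and 28.4 CPM in the IMQ and 90.7, 128 and 196 CPM in the LYS libraries. The IMQ libraries were below all others and control and LYS overlapped, with log2 fold changes of -1.86 ± 0.26 (5.21e-04), 1.88 ± 0.36 (0.0591) and -0.05 ± 0.28 (0.899) in the same order of comparisons. Loxl2, which crosslinks basement membrane collagen, was at 116, 146 and 115 CPM in the control, 26.5, 13.2 and 11 CPM in the IMQ and 35.7, 36.8 and 53.9 CPM in the LYS libraries. The 3 groups did not overlap. Its log2 fold change was -2.9 ± 0.32 in IMQ against Control (1.78e-04), 1.38 ± 0.36 in LYS against IMQ (0.0642) and -1.58 ± 0.19 in LYS against Control (0.00166).

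Loxl4 was at 18.2, 21.8 and 15.9 CPM in the control, 6.38, 2.61 and 3.22 CPM in the IMQ and 6.98, 9.32 and 12.3 CPM in the LYS libraries. The 3 groups did not overlap, with LYS between. The log2 fold change was -2.18 ± 0.33 in IMQ against Control (adjusted p = 7.55e-04) and -0.96 ± 0.23 in LYS against Control (0.019), and the latter was not called without Control 1, Control 2 or LYS 2 (0.0683 to 0.0825). Loxl3 was at 11.2, 12.2 and 10.3 CPM in the control, 4.37, 4.84 and 4.4 CPM in the IMQ and 6.0, 9.89 and 13.5 CPM in the LYS libraries. The IMQ libraries were the lowest, with log2 fold changes of -1.32 ± 0.17 in IMQ against Control (4.08e-04) and 1.19 ± 0.32 in LYS against IMQ (0.0654). Loxl3 shares 11.6% of its exon bases with Htra2 on the other strand.

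Among the lysyl hydroxylases, Plod2, whose product modifies the telopeptides of collagen, was called lower in LYS against Control and Plod1 and Plod3 were not. Plod2 was at 17.7, 11.8 and 13.0 CPM in the control, 2.73, 2.61 and 1.68 CPM in the IMQ and 3.98, 2.77 and 4.36 CPM in the LYS libraries. The groups did not overlap, but LYS was much nearer to IMQ. The fitted change on the log2 scale was -2.59 ± 0.26 in IMQ against Control (edgeR adjusted p = 1.11e-04), 0.72 ± 0.32 in LYS against IMQ (0.153) and -1.93 ± 0.25 in LYS against Control (0.00207). Plod1, which acts on the helix of collagen, was at 91.3, 125 and 84.0 CPM in the control, 59.2, 32.2 and 31.5 CPM in the IMQ and 63.8, 103 and 118 CPM in the LYS libraries. IMQ was below the other groups, which overlapped, and the log2 fold changes were -1.29 ± 0.27 (0.00406), 1.28 ± 0.33 (0.0636) and -0.07 ± 0.25 (0.845) in the same order. Plod3, which also adds sugars to hydroxylysine, was at 63.7, 74.5 and 58.1 CPM in the control, 32.7, 28.8 and 25.2 CPM in the IMQ and 52.1, 63.2 and 68.1 CPM in the LYS libraries. The IMQ libraries were again the lowest, with log2 fold changes of -1.18 ± 0.14 (2.88e-04), 1.15 ± 0.16 (0.0591) and -0.1 ± 0.15 (0.656). Plod3 shares 11.7% of its exon bases with Znhit1 on the other strand.

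Summed per family, the Mmp genes stood higher relative to the Timp genes in the IMQ and LYS libraries than in the control libraries, and the Adamts genes did not. FPKM is per total count, without the TMM factors of 1.104 to 1.197 in the control, 0.7896 to 0.9153 in the IMQ and 0.9776 to 1.099 in the LYS libraries, so ratios within a library, which these factors do not touch, are given beside the sums. The summed FPKM of the Mmp genes was 289 ± 33.4 (SD, n = 3) in the control, 171 ± 82.9 in the IMQ and 464 ± 121 in the LYS group. The 4 Timp genes summed to 250 ± 25.8, 98.0 ± 25.2 and 247 ± 106 FPKM in the same order. The ratio of the 2 sums was 1.07, 1.16 and 1.25 in the control, 2.12, 1.46 and 1.46 in the IMQ and 2.35, 2.11 and 1.53 in the LYS libraries. Every IMQ and LYS library had a higher ratio than every control library, and IMQ and LYS overlapped. Mmp2 was 38.8% to 54.6% of the Mmp sum in the 9 libraries, so the ratio rests largely on Mmp2 and Timp2. Without these 2 genes the ratio was 2.36, 2.33 and 2.73 in the control, 7.96, 8.52 and 8.23 in the IMQ and 5.16, 5.64 and 5.56 in the LYS libraries, and the 3 groups did not overlap. The ratio is a description with no test. The ratio of Adamts over Timp sums was 0.41 ± 0.0439 in the control, 0.359 ± 0.0625 in the IMQ and 0.344 ± 0.0534 in the LYS group, with overlap. The lysyl oxidases summed to 116 ± 10.2, 21.6 ± 10.2 and 78.9 ± 29.9 FPKM, and the lysyl hydroxylases to 36.5 ± 4.09, 10.9 ± 3.63 and 29.8 ± 7.84 FPKM. At a mean of 1 FPKM or more, 35 members were detected in the control, 27 in the IMQ and 34 in the LYS group, and at a mean of 1 TMM-scaled CPM or more 43, 41 and 44.

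**Figure D5:**
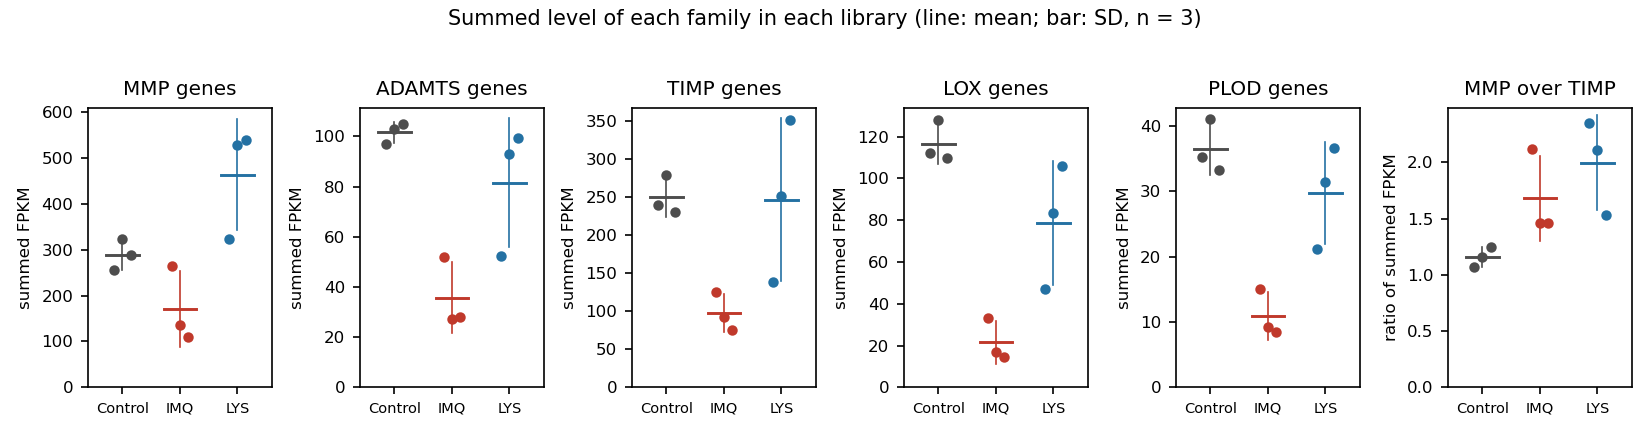
Summed FPKM of the Mmp, Adamts, Timp, lysyl oxidase (LOX) and lysyl hydroxylase (PLOD) genes in each library, and the ratio of the Mmp to the Timp sum, with 1 point per library, a line at the mean and a bar of 1 SD. All axes start at 0. The LOX and PLOD sums of the IMQ libraries lie below all control and LYS libraries, and the Mmp to Timp ratio of each control library (1.07 to 1.25) lies below those of the IMQ and LYS libraries.

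Of 10 fibroblast markers, 9 fell in IMQ against Control, where most members fell too. In LYS against Control 3 of the markers were lower and 1 higher. Their summed level was 22700 to 28900 CPM in the control, 3570 to 11000 CPM in the IMQ and 9550 to 18800 CPM in the LYS libraries. IMQ 1, at 11000 CPM, was the highest IMQ library and LYS 1, at 9550 CPM, the lowest LYS library, the same libraries that stood apart for the members. Per 1000 CPM of these fibroblast markers, a quantity chosen after the values were seen, Mmp2 was at 16.2, 16.8 and 15.7 CPM in the control, 37.9, 46.3 and 50.2 CPM in the IMQ and 47.0, 57.0 and 48.1 CPM in the LYS libraries. On this scale every IMQ and LYS library lay above every control library, although edgeR called the CPM of Mmp2 in no comparison. Timp2 was at 25.0 ± 2.65, 71.8 ± 26.8 and 49.9 ± 8.05 CPM per 1000 in the control, IMQ and LYS groups, and Mmp14 at 10.6 ± 0.735, 30.1 ± 7.75 and 25.0 ± 2.59, again with every control library below all others. Lox, at 5.21 ± 0.666, 6.48 ± 1.08 and 6.67 ± 2.04, overlapped between the groups. Loxl1 was at 5.52 ± 0.863, 6.68 ± 1.51 and 9.43 ± 1.03, with every LYS library above every control and IMQ library. The collagen genes Col1a1, Col1a2 and Col3a1 made up 77.9% to 89.4% of the marker sum, so these are nearly levels per collagen RNA. These ratios show unequal change of the genes within whole skin and do not give levels per fibroblast.

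Neutrophil markers were higher in the groups in which Mmp8, Mmp9 and Mmp25 were higher. Of 9 such markers 6 were tested in IMQ against Control, 4 rose (Cxcr2, Csf3r, Retnlg and Ngp) and 1 fell (Mpo). In LYS against Control 6 were tested too, 4 rose (Cxcr2, Csf3r, Retnlg and Ltf) and 1 fell (Mpo). Ngp was not tested in LYS against Control, nor Ltf in IMQ against Control. Their summed level was 26.4 to 30.4 CPM in the control, 175 to 463 CPM in the IMQ and 155 to 340 CPM in the LYS libraries. Within the groups the order of libraries followed the sum only in part. IMQ 2, with the highest IMQ sum, held the highest Mmp8 and Mmp9 of its group but the lowest Mmp25. LYS 1, with the highest LYS sum, held the highest Mmp9 and Mmp25 of its group, while Mmp8 was highest in LYS 2. Of the granule genes, Elane, Mpo and Camp stayed below 1 CPM in the IMQ and LYS means, while Ltf was at 0.519 and 1.68 CPM. The control mean of Mpo was 3.91 CPM. Ngp had means of 3.23 and 3.43 CPM, with 7.97 CPM in IMQ 2, 8.89 CPM in LYS 3 and less than 1 CPM in the other libraries. Retnlg was at 214 CPM in IMQ 2 and at 18.8 and 26.0 CPM in IMQ 1 and IMQ 3. Ly6g was at 0 in 2 libraries. The keratinocyte markers, basal, suprabasal and stressed, rose in IMQ against Control in 6 of 6 each. They numbered 5, 5 and 6 higher of 6 in LYS against Control. The stressed keratinocyte markers summed to 465 to 824, 17300 to 26800 and 7830 to 17700 CPM in the control, IMQ and LYS libraries. Lower in IMQ against Control were 5 of 9 macrophage, 6 of 6 mast cell, 4 of 6 endothelial and 7 of 8 skeletal muscle markers, while 0 of 4 smooth muscle and pericyte markers were called. In LYS against IMQ edgeR called 0 of the 15460 genes tested, so none of these lists could hold a call there. The part of each cell type in the members' values was not tested.

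The genes that activate or assist these proteases had calls in both directions. So did all genes tested in IMQ against Control, with 24.1% higher and 26.9% lower. Of 8 plasminogen activation genes tested, 5 rose and 3 fell in IMQ against Control. Plaur, the urokinase receptor, rose from a mean of 10.7 ± 2.23 to 141 ± 77.2 CPM (SD, n = 3; log2 fold change 3.71 ± 0.46). Of 4 proprotein convertases, which remove propeptides, 2 rose and 1 fell, with Furin at 133 ± 4.95 and 336 ± 53.5 CPM and Pcsk5 at 38.3 ± 6.3 and 6.99 ± 4.64 CPM in the control and IMQ groups. Of 9 ADAM proteases, which shed membrane proteins, 2 rose and 3 fell, with Adam8, a leukocyte protease, at 12.2 ± 2.94 and 101 ± 41.0 CPM and Adam12 at 60.7 ± 9.59 and 9.27 ± 6.85 CPM. Of 5 other inhibitors and cofactors, 2 rose and 2 fell. Lcn2, which binds Mmp9, rose from 14.3 ± 4.67 to 298 ± 176 CPM, and Tfpi2, a serine protease inhibitor of the matrix, fell from 5.19 ± 0.958 to 0.932 ± 0.718 CPM. Of 5 cathepsins tested 2 rose, the lysosomal proteases Ctsd (445 ± 82.5 to 1770 ± 339 CPM) and Ctsl (417 ± 95.5 to 938 ± 107 CPM), and 1 fell. The meprins of the same list were not tested. Of 6 ADAMTS-like genes, whose products lack the protease domain, 4 fell, with Adamtsl1 and Adamtsl3 lower by log2 fold changes of -1.79 ± 0.16 and -1.51 ± 0.33.

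The genes of the substrates fell with the crosslinkers, and so did a part of those of procollagen processing. All 14 substrate genes fell in IMQ against Control, with Vcan, versican, at 237 ± 26.9 CPM in the control, 13.0 ± 10.6 CPM in the IMQ and 66.6 ± 13.1 CPM in the LYS group. Acan, aggrecan, was at 25.0 ± 6.91, 0.243 ± 0.421 and 0.114 ± 0.115 CPM in the same order, low in the LYS group too. Of 17 genes of procollagen processing and folding, 10 fell, 5 were not called and 2 rose, P4hb (552 ± 37.2 to 1110 ± 200 CPM), a subunit of prolyl hydroxylase, and P3h2 (9.43 ± 0.801 to 14.2 ± 1.82 CPM), a prolyl hydroxylase, both named after their values were seen. Pcolce, the enhancer of the C-proteinase, was at 323 ± 69.9 CPM in the control, 55.1 ± 29.9 CPM in the IMQ and 134 ± 28.3 CPM in the LYS group, and Serpinh1, the collagen chaperone, at 641 ± 111, 111 ± 48.5 and 280 ± 55.0 CPM. In LYS against Control, 6 of 14 substrates and 4 of 17 processing genes were lower and 0 higher. Over all genes tested there, 12.9% were lower and 15.1% higher. In LYS against IMQ edgeR called 0 of the 15460 genes tested, so no gene of these 8 lists could be called there. In LYS against Control the other lists had 2 higher and 2 lower (plasminogen activation), 1 and 0 (convertases), 1 and 1 (ADAM), 2 and 0 (other inhibitors and cofactors), 2 and 0 (cathepsins) and 0 and 0 (ADAMTS-like).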

How the data were processed

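TRIzol was used to extract RNA from whole back skin, the NEBNext Ultra kit to prepare libraries, and a HiSeq4000 to sequence them. The submitters' processing notes name HISAT2, HTSeq 0.13.5 and GRCm38, and the strand setting is not given in the sources used here. The authors deposited raw counts per gene, without normalization, and FPKM, per exon length and per total count. Groups came from the sample labels, and 0 columns were left without a sample. Same-group libraries differed by more than counting noise, so all 9 were used. Each comparison was fitted on the counts by the quasi-likelihood test of edgeR (4.0.16, under R 4.3.3), after filterByExpr and TMM scaling, with p-values adjusted by Benjamini-Hochberg over all genes tested. A fit held the 6 libraries compared and no replicate block. The fits were tested on simulated data. DESeq2 1.42.0, other scaling, no filter, all 9 libraries in a single fit, a replicate block and leaving out each library were alternatives. For 1 to 3 counts, a 95% exact conditional interval of the ratio is given; a group at 0 was set to a floor of 3 counts per library. Genes were located in GENCODE M21, and promoters taken from RefSeq.

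Named genes were the 5 called members with the largest change per direction and comparison at a mean of at least 1 CPM, the most abundant member of each role group, all inhibitors and crosslinkers, and the 10 with the smallest p in LYS against IMQ; Mmp10, Mmp12, Mmp15, Mmp16, Mmp17, Mmp27, Mmp28, Adamts3, Adamts4, Adamts5, Adamts6, Adamts10 and Adamts14 were named after their values were seen. In each pathway list the 2 genes with the largest change were named, except 1 whose values are not reported here. The members and the lists of pathway genes and cell type markers were chosen with earlier results of these data known.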

Additional observations from a re-analysis of the deposited data

How the results depend on the processing

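Of the log2 fold changes of the named members under the alternatives, 376 of 408 in IMQ against Control, 369 of 408 in LYS against Control and 281 of 416 in LYS against IMQ kept their direction and their side of the call. In LYS against IMQ, 128 others were newly called. There, where edgeR called 0 members (29 at an unadjusted p under 0.05), DESeq2 called 26, no low-count filter gave 19, all 9 libraries in a single fit 21, and leaving out IMQ 1 and LYS 1 together 31. Over all genes tested, these fits called 3345 of 14693, 2419 of 27402, 3040 of 16392 and 5756 of 15670, in the same order. Leaving out 1 library gave 0 to 27, the high values being 27 without LYS 1 and 19 without IMQ 1. Over all genes, 4262 of 15895 were called without LYS 1, 1873 of 15840 without IMQ 1, and 0 without any other library. The cause was not tested. Leaving out 1 library gave 34 to 40 members called in IMQ against Control and 13 to 22 in LYS against Control. In the former, 7372 to 8894 of all genes were called, with 16298 to 16501 tested. In the latter, 2579 to 5072 were called, with 16318 to 16447 tested. The replicate numbers did not pair the libraries (same-number correlations of -0.46 to 0.2). The fit with a replicate block called 39, 0 and 17 members in IMQ against Control, LYS against IMQ and LYS against Control. Over all genes it called 8044 of 15976, 0 of 15460 and 3126 of 16003.

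In LYS against IMQ, leaving out 1 library turned the sign of Mmp8 (-1.34 to 0.23), Mmp13 (-0.41 to 0.06), Mmp9 (-0.15 to 0.69) and Adamts20 (-1.19 to 0.66), on the log2 scale. Mmp13 was also 0.12 with library totals only, Mmp9 -0.27 without both IMQ 1 and LYS 1, and Adamts20 -0.28 with the replicate block. In LYS against Control, it turned Timp2 (-0.15 to 0.52), Loxl1 (-0.38 to 0.19), Loxl3 (-0.49 to 0.07), Plod1 (-0.25 to 0.16), Plod3 (-0.17 to 0.02) and Adamts15 (-0.43 to 0.18). The smallest adjusted p of a value with its sign turned was 0.186. Scaling by library totals only moved the median of all genes to -0.51 in IMQ against Control, 0.29 in LYS against IMQ and -0.15 in LYS against Control, and that of the members to -1.71, 1.4 and -0.4. For members as low as Mmp10 or Adamts16, small differences were not detectable at this depth.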
